A study of Mus musculus with 16 samples.

Results

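The members described here are the 7 genes Cnga1, Cngb1, Cnga3, Cngb3, Slc24a1, Slc24a2 and Hcn2, which encode channels and cation exchangers of photoreceptors. They were chosen by gene symbol in the deposited table of all genes, and all 7 were found among its 25905 genes. The series holds 16 retinal RNA-Seq libraries of wild type C57BL/6 male mice labelled as 10-week old, of which 8 came from ground control mice and 8 from mice flown on the International Space Station. The right retina of each mouse gave the RNA, in the flown mice after their live return to Earth, and the ground control mice were kept on Earth in the hardware and on the diet used in flight. The values are the authors' means over all 16 libraries of counts normalized for library size, so each gene has a single level with no SD. The columns of counts per library carry laboratory codes that match no label and were left out. The fold changes and p-values of the authors are not used here. The levels in each group, the spread between mice and the effect of spaceflight on these genes are therefore not analysed here, and no test was made.

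In darkness, cyclic GMP holds open the cyclic nucleotide-gated channels of the photoreceptor outer segment, and sodium and calcium flow in. Light starts a cascade that ends in the breakdown of cyclic GMP, the channels close, and the cell hyperpolarizes. Exchangers of the Slc24 family use the gradients of sodium and potassium to carry calcium out, and the fall in calcium helps the cell to recover from light. Channels of the Hcn family open on hyperpolarization and shape the voltage response in the inner segment. Rods and cones build their channels from different subunits, Cnga1 with Cngb1 in rods and Cnga3 with Cngb3 in cones.

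The level of each gene depends on which transcripts were counted, so these are described before the levels. The deposited count table has a row for each RefSeq transcript record, with the gene symbol beside it. Of the 7 members, 6 stand on 1 row each, and Slc24a2 stands on 2 rows. The rows of all 7 members could be matched to transcripts of GENCODE release M21, which is on assembly GRCm38, and 7 of the 8 rows name the same version of the record. The authors mapped the reads to an older assembly, so the positions given here are those of GRCm38 and were not compared with theirs.

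The row of Cngb1 is the record of Cngb1-201, a short transcript of the gene at chr8:95239045-95306585 on the minus strand. It has 13 exons and 1512 bases, and its open frame is 326 codons long. The transcript Cngb1-202, with 33 exons, 6189 bases and 1325 codons, has no row in the table. Both start with the same 12 exons, 1017 bases in all. After these, Cngb1-201 ends in a last exon of its own, while Cngb1-202 goes on for another 5172 bases, 83.6% of its length. The shared exons encode the amino-terminal glutamic-acid-rich part of the protein, and RefSeq lists Garp2, the name of the soluble form of that part, as a synonym of Cngb1. The part of the beta subunit that spans the membrane and lines the pore is encoded by exons that the counted transcript lacks. The junction is shown because it separates both forms. Each sequence starts with the last 30 bases of the shared exons in lower case, and the capitals mark the bases of that transcript alone. For Cngb1-201 these are the 23 coding bases of its last exon (chr8:95291065-95291087), and for Cngb1-202 the first 60 bases of its next exon (chr8:95286704-95286763), both from the minus strand of GRCm38.
Cngb1-201: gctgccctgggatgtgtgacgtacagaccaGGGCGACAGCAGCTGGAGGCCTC
Cngb1-202: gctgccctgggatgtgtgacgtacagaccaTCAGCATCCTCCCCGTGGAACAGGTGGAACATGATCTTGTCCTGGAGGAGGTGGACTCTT

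The rows of Slc24a2 are the records of Slc24a2-203 and Slc24a2-204, both from the gene at chr4:86983124-87230477 on the minus strand. They have 10531 and 10499 bases, of which 10313 are common to both. Only 404 bases, 3.77% of the bases of both together, belong to 1 of the transcripts. Within the coding sequence, Slc24a2-203 holds an exon of 51 bases (chr4:87049884-87049934) and Slc24a2-204 an exon of 186 bases (chr4:87176162-87176347) that the other lacks. These exons are shown since they are the coding stretches by which the rows can be told apart. They stand in capitals between 30 bases of the exons on each side, read from the minus strand.
Slc24a2-203: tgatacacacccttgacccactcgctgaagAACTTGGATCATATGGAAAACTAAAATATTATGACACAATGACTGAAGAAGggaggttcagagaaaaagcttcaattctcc
Slc24a2-204: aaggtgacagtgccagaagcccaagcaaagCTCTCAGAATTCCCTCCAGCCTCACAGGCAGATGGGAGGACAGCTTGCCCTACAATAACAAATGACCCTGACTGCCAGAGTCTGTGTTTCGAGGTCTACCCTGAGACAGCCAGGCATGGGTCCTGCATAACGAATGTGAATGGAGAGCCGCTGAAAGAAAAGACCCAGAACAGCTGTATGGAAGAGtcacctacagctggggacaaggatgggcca

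**Figure D1:**
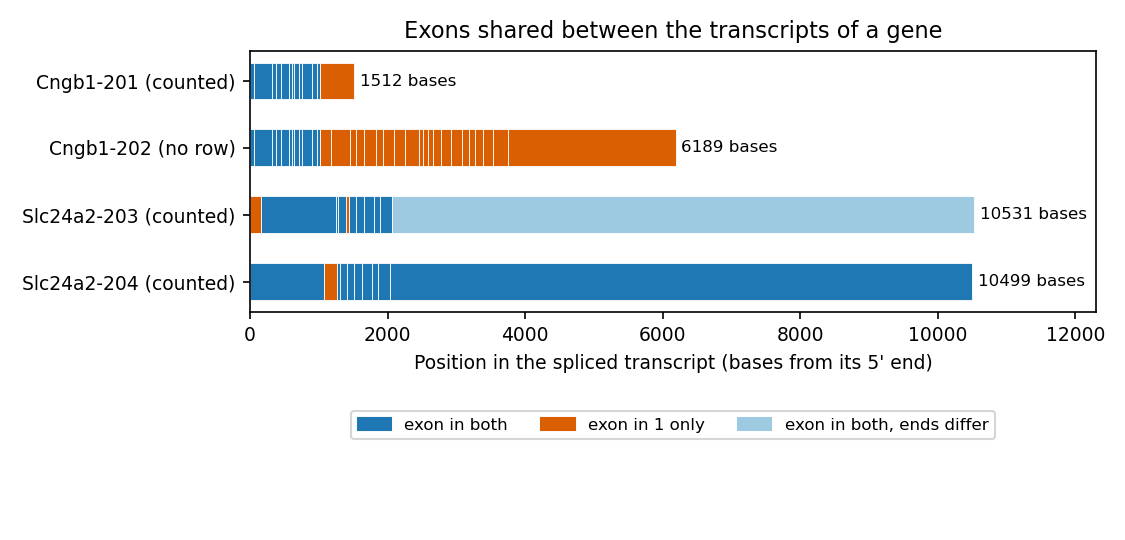
Exons of the transcripts of Cngb1 and Slc24a2 along the spliced transcript, in bases from the 5' end, with exons held by both transcripts of a gene in blue, those whose ends differ in light blue and exons held by 1 of them in orange. The counted transcript of Cngb1 covers 1017 of the 6189 bases of the long one, whereas the counted transcripts of Slc24a2 differ in 404 bases.

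The other 5 members have 1 row each. Cnga1 lies at chr5:72603696-72644275 on the minus strand, and its counted transcript has 9 exons and 684 codons. Cnga3 lies at chr1:37214434-37263384 on the plus strand, with 6 exons and 631 codons, and Cngb3 at chr4:19280850-19510623 on the plus strand, with 18 exons and 694 codons. Slc24a1, at chr9:64922861-64951607 on the minus strand, has 10 exons and 1130 codons. Hcn2, at chr10:79716634-79736108 on the plus strand, has 8 exons and 863 codons. A pseudogene lies within Cnga1 and another within Cngb3, and the exons of the 7 members share 0 bases with exons of an overlapping gene.

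The exchanger and the alpha subunit of the rod channel were far above the other members. Slc24a1, the sodium-calcium-potassium exchanger of rods, had a mean normalized count of 22011 and stood at rank 23 of all genes. Cnga1, the rod alpha subunit, had a mean normalized count of 8658 and stood at rank 57. The remaining 5 members lay between 14.2 and 274 on the same scale. All 7 were above a mean normalized count of 10, the minimum used for ranking, which 12374 genes reached. Among those genes, 99.8% lay below Slc24a1 and 99.5% below Cnga1. The shares were 61.7% for Hcn2, 57.7% for Cngb3, 46.0% for Cnga3, 45.4% for Cngb1 and 4.99% for Slc24a2. Together the members made up 0.450% of the summed mean normalized counts of all genes, and Slc24a1 alone 0.315%.

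Longer transcripts give more reads, so levels were compared between genes as the mean normalized count per kilobase of the counted transcript. On this scale Slc24a1 was at 4222 and Cnga1 at 3161, a ratio of 1.34. Cngb1 followed at 95.7, Hcn2 at 85.9, Cngb3 at 50.4 and Cnga3 at 41.9, and Slc24a2 was last at 1.35. Cnga1 was 33.0 times as high as the next gene, Cngb1, and the neighbours from Cngb1 to Cnga3 differed by between 1.11- and 1.70-fold. The gap between Cnga3 and Slc24a2 depended on the length used for Slc24a2. It was 31.0-fold per kilobase and 11.4-fold per kilobase of coding sequence. Taking only the bases that tell the 2 rows of Slc24a2 apart as its length gave 1.19-fold. That last length made no allowance for reads that cross the edges of these bases. The spread between mice was not computed here, so it cannot be said which of these neighbours differ beyond their error. With the coding length in place of the transcript length, Cngb3 and Hcn2 changed places in the order.

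The subunits of the cone channel lay close together, whereas those of the rod channel could not be compared from this table. Per kilobase, Cnga1 was 33.0 times as high as the row of Cngb1. That row leaves out the exons of the membrane part, while 67.3% of its bases are also part of Cngb1-202. Its count cannot be assigned to either transcript, and the ratio is not one between the alpha and beta subunits. In the cone channel, Cngb3 was 1.20 times as high as Cnga3 per kilobase, and 1.45 times per kilobase of coding sequence. Between the cell types, the alpha subunit of rods was 75.5 times as high as that of cones on the scale per kilobase. The ratio was 53.7 per kilobase of coding sequence and 58.2 without scaling by length. In whole retina, more cells of a type and more RNA per cell cannot be told apart, so these ratios are ones of the tissue.

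Slc24a2, an exchanger named for cones, had the lowest level of the members, a mean normalized count of 14.2. Slc24a1 was 3127 times as high per kilobase and 945 times per kilobase of coding sequence. With only the bases that tell the rows of Slc24a2 apart as its length, and no allowance for reads that cross their edges, the ratio was 120.2. Genes on more than 1 row were in general listed at low levels in this table. Of 22086 genes on 1 row, 51.7% had a mean normalized count of at least 10, against 25.0% of 2704 genes on 2 rows and 23.9% of 1090 genes on 3 or more rows. The median over genes above 0 was 63.3 for genes on 1 row and 3.94 for genes on 2 rows.

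The level of genes on 2 rows also went with how far their transcripts differ. For 1774 of the 2071 genes with curated records on both rows, 85.7%, the exons of both transcripts were found. Where less than 5% of the bases belonged to 1 transcript, the median mean normalized count was 0.360 over 292 genes, and 4.79% of them reached 10. Where at least 50% did, the median was 20.9 over 495 genes, and 58.6% reached 10. Slc24a2, with 3.77% of such bases, belongs to the first group, and its level was above that of 279 of those 292 genes. The transcripts of the 2 rows of Slc24a2 are thus nearly identical. How the level of 14.2 was formed from the counts of both rows was not tested. The output of the counting program holds a class for ambiguous reads, and how many reads of Slc24a2 went there was not tested. Divided by the 404 bases that tell the rows apart in place of the whole length, the level of Slc24a2 was 35.1 per kilobase. These bases lie in separate stretches, among them exons of 51 and 186 bases. The length over which a read could be assigned to 1 row was not worked out, so 35.1 is not a corrected level.

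**Figure D2:**
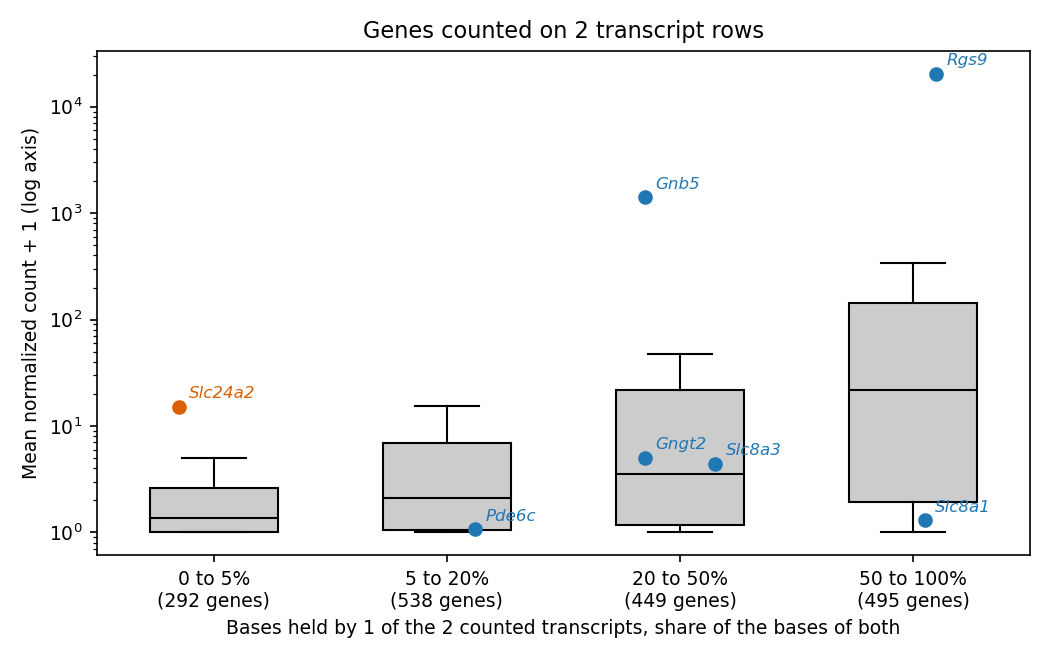
Mean normalized count plus 1, on a log axis, of 1774 genes counted on 2 transcript rows, by the share of bases held by 1 of the transcripts. Boxes span the quartiles with the median as a line, whiskers reach the furthest genes within 1.5 box heights, and points are named photoreceptor and exchanger genes. The medians rise from 0.360 in the first box to 20.9 in the last, and Slc24a2 lies above the first box.

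Among the Cng genes, the counted transcripts of the 4 members of the retina held nearly all of the family's level. Summed per kilobase over the 6 listed Cng genes, Cnga1 made up 94.3%, Cngb1 2.85%, Cngb3 1.51% and Cnga3 1.25%. The row of Cngb1 leaves out the exons of the membrane part, so these are shares of counted transcripts and not of channel subunits. The olfactory subunits were near 0, with mean normalized counts of 0.214 for Cnga2 and 6.35 for Cnga4. Omp, a marker of olfactory neurons, was at 1.34 on the same scale.

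Among the Slc24 exchangers, Slc24a1 made up 80.7% of the level per kilobase summed over 5 genes. Slc24a3, an exchanger found widely in the nervous system, was next with 14.8%, and Slc24a4 had 4.15%. Their levels per kilobase were 775 and 217, both above that of Slc24a2. Which retinal cells gave the reads of Slc24a3 and Slc24a4 cannot be told from these libraries. The ratio of Slc24a1 to Slc24a2 is therefore not one between all exchangers of rods and of cones. The counted transcript of Slc24a3 has 1788 bases, of which 1785 are coding, so its share depends on the length used. Slc24a1 was 5.45 times as high as Slc24a3 per kilobase, 8.37 times per kilobase of coding sequence and 15.9 times without scaling by length. Slc24a5, the exchanger of pigment cells, was at 17.8 per kilobase. The sodium-calcium exchangers of the Slc8 family, which do not carry potassium, include Slc8a2, which was at 28.7 per kilobase. Slc8a1 and Slc8a3 stand on 2 rows each and had mean normalized counts of 0.308 and 3.41. Slc8b1, the mitochondrial exchanger, appears under its older symbol Slc24a6 on 3 rows and is listed at 0.

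Among the Hcn channels, Hcn2 was 1.63 times as high as Hcn3 and 1.91 times as high as Hcn4 per kilobase. Without scaling by length, the mean normalized counts of Hcn2 and Hcn4 were 274 and 275. Hcn2 is also made by other retinal neurons, and the cells that gave its reads cannot be told from these libraries.

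**Figure D3:**
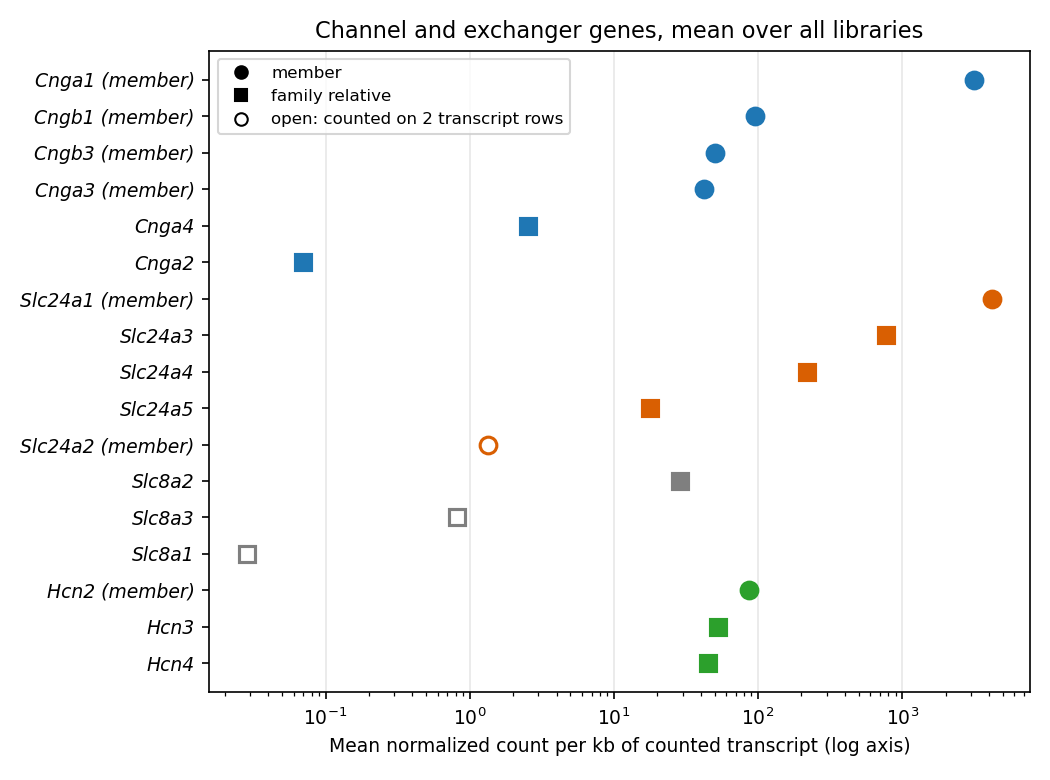
Mean normalized count per kilobase of the counted transcript, on a log axis, of the members (circles) and of relatives from their families (squares), with open symbols for genes counted on 2 transcript rows. Slc24a1 and Cnga1 lie furthest to the right at 4222 and 3161, and the open circle of Slc24a2 lies at 1.35.

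The other genes of phototransduction give a scale for these levels. In the list of 17 genes of the rod cascade, the median level per kilobase was 5086, above both Slc24a1 and Cnga1. This list includes genes such as Rgs9 and Gnb5 that have no counterpart in the cone list below. Whether the reads of its genes came from rods alone was not tested. Gnat1, the alpha subunit of rod transducin, was 21.0 times as high as Cnga1 per kilobase. Pde6a, a catalytic subunit of the enzyme that breaks down cyclic GMP, was at 5086 per kilobase, 1.61 times the level of Cnga1. Sag, the arrestin of rods, was at 17311 per kilobase. Of the 17 genes, 16 reached a mean normalized count of 10. The exception was Gnb1, the beta subunit of rod transducin, which stands on 3 rows and had a mean normalized count of 0.266.

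In the list of 8 cone genes, the median level per kilobase was 632, against 41.9 for Cnga3 and 50.4 for Cngb3. Gnat2, the alpha subunit of cone transducin, was at 572 per kilobase, 13.7 times the level of Cnga3 and 11.3 times that of Cngb3. Opn1sw, the short-wavelength pigment, was 27.7 times as high as Cnga3. The 6 cone genes on 1 row lay between 90.3 and 1162 per kilobase, all above both cone channel subunits. The 2 others, Gngt2 and Pde6c, stand on 2 rows each and were at 7.11 and 0.0255 per kilobase. Low values on several rows were thus listed for Gnb1, Gngt2 and Pde6c as well as Slc24a2. Rgs9 and Gnb5, also on 2 rows, were at 8602 and 724 per kilobase. The share of bases held by 1 transcript was 39.6% for Gngt2 and 15.5% for Pde6c, against 3.77% for Slc24a2. For Gnb5 and Rgs9 it was 32.5% and 55.1%. The cause of the low values was not tested.

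The list of channel partners and genes of the photocurrent held 13 genes, all of them on 1 row and above a mean normalized count of 10. Prph2, a disc rim protein to which the glutamic-acid-rich part of Cngb1 binds, was at 11147 per kilobase, 2.64 times the level of Slc24a1. Rom1, its partner, was at 10228. Atp1b2, a subunit of the sodium pump that keeps up the gradients for the photocurrent, was at 8231 per kilobase. Grb14, an adaptor that binds the rod alpha subunit and is named here after its value was seen, had the lowest level of the list. At 26.0 per kilobase it lay below Cnga3.

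**Figure D4:**
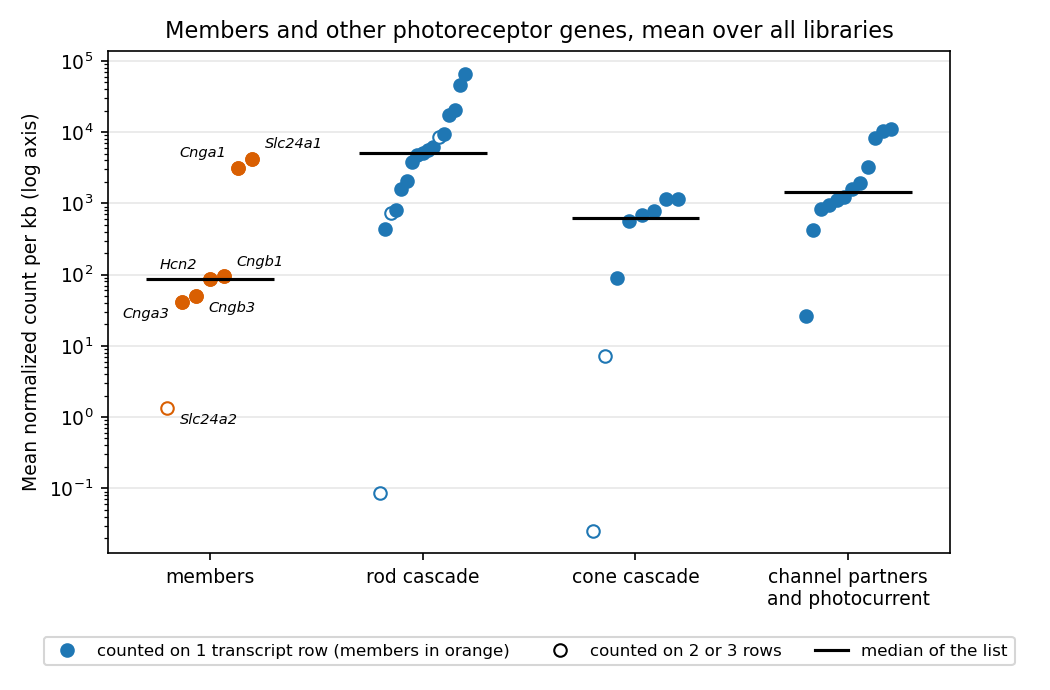
Mean normalized count per kilobase, on a log axis, of the members and of 3 lists of photoreceptor genes, each point a gene and the line the median of its list, with open points for genes counted on 2 or 3 rows. Slc24a1 and Cnga1 lie near the rod median of 5086, and the cone channel subunits lie below the cone median of 632.

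The label of the tissue was compared with markers of retinal cells. All 6 rod markers and all 5 cone markers reached a mean normalized count of 10. Markers of bipolar, amacrine and horizontal cells, 10 in all, were also above 10. Of 5 markers of the pigment epithelium 4 were above 10, from 2.72 for Best1 to 540 for Ttr, and of 3 lens markers 2 were, with Cryaa at 898. Of the remaining markers, 3 of 4 for Müller glia, 3 of 4 for ganglion cells, all 3 for microglia, 1 of 2 for endothelium and 1 of 2 for astrocytes reached 10, and 0 of 3 for olfactory neurons did. Among the markers below 10, Rlbp1 and Pecam1 stand on 2 rows and Rbpms on 3. Pax2, Best1, Lim2 and the olfactory markers stand on 1 row each. Nrl and Gfap, also on 2 rows, reached 10. The part of tissue other than the retina in the level of the members was not tested.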

How the data were processed

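Retinal RNA of 16 mice was sequenced as stranded, single-end libraries. Adapters had been removed by the authors (Trimmomatic), reads placed with TopHat2 on a mouse genome older than GRCm38 and counted with HTSeq, followed by DESeq2 1.22.2 in R 3.5.1. The signal values used here are the deposited means over all libraries of counts divided by the size factors of DESeq2, 1 value per gene symbol, both groups pooled. The deposited tables also hold the authors' fold changes, standard errors, test statistics and p-values, which were not used. The 16 count columns of each of 2 deposited tables, 32 in all, are named by codes that match no label and were left out, so a quasi-likelihood test planned on the counts could not be run. Depth per library is not analysed here. The summed mean normalized counts were 6995811.

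From the files, the rank and percentile of each gene and its level per kilobase were computed. Lengths and exons came from GENCODE M21 transcripts matched by RefSeq record, for 24379 of 31616 transcript rows (77.1%) and for 55 of 56 genes of the lists. Named genes are the members, their family relatives, up to 5 of the most abundant of each list, and those a result turns on, except some genes that are not reported here. The members and lists were chosen with earlier results of these data known. Gene names and synonyms came from RefSeq. The functions for the percentile, the level per kilobase and the bases shared between transcripts were tested on toy values with known answers. The matching of records and the grouping of genes by shared bases were not tested in this way. The tools were numpy 2.4.6, pandas 2.3.3 and matplotlib 3.10.9 under Python 3.11.15.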

Additional observations from a re-analysis of the deposited data

How the results depend on the processing

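No paired analysis was possible because no column of counts could be matched to a mouse. For the same reason the alternatives planned for the comparison of spaceflight with ground control (DESeq2, no filter, the replicate block, another threshold, leaving out a library) were not run. The order of the 7 members per kilobase put Slc24a1, Cnga1 and Slc24a2 at ranks 1, 2 and 7 under each of 3 alternatives run on it. With no scaling by length, Cngb1 moved from rank 3 to 6, Cnga3 from 6 to 5, Cngb3 from 5 to 4 and Hcn2 from 4 to 3. With the coding length, an alternative added after seeing the data, Cngb3 was at rank 4 and Hcn2 at rank 5. With only the bases that tell the rows of Slc24a2 apart, also added later, all 7 ranks were the same, but Cnga3 was then 1.19 times as high as Slc24a2 in place of 31.0 times. The planned length of the RefSeq protein was not used here. Set against all genes above 0 in place of genes above 10, the percentiles of 5 members moved by more than 1 point, that of Slc24a2 from 4.99 to 40.2. The rod list was 45.0 times the cone list in summed level per kilobase, and 8.05 times by the medians. The 2 lists differ in the kinds of genes they hold, so these are ratios of lists and not of rods to cones. The counts per library were left out, so the size of the error of each level was not estimated.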
